A study of Mus musculus with 18 samples.

Results

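The genes described here are 3 cadherins, 6 transcription factors linked to the epithelial-mesenchymal transition (EMT) and an epithelial splicing regulator, 10 of the 35667 genes of the deposited table, and they were chosen by gene symbol: Cdh1, Cdh2, Cdh11, Snai1, Snai2, Twist1, Twist2, Zeb1, Zeb2 and Esrp1. All 10 symbols were found. RNA of mouse liver cells was sequenced in bulk from 18 Smart-seq2 libraries, 3 in each of 6 groups. Hepatic stellate cells (HSC), the retinoid-storing pericytes of the liver, came from healthy wild-type mice, per the series design text. They were sampled at day 7 of culture in Matrigel together with organoids, at day 7 alone in Matrigel, at day 7 on plastic, and at day 0 directly after isolation. Intrahepatic cholangiocyte organoids (ICO), grown from bile duct epithelium and tagged with dTomato, were sampled at day 7 from the same co-culture and at day 7 alone in Matrigel. Cells from Matrigel were sorted before RNA isolation. The growth medium named in the labels contained serum, EGF, FGF10, HGF and RSPO3. The sources used here name no strain, age or sex of the mice and no organoid line or passage. Whether the 3 libraries of a group stem from separate animals or cultures is likewise not stated, so p-values measure the spread between these libraries, which may be technical.

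E-cadherin (Cdh1) holds epithelial cells together by binding E-cadherin of the neighbouring cell and, inside the cell, the catenins that link it to actin. N-cadherin (Cdh2) and cadherin 11 (Cdh11) do the same in many mesenchymal cells, and stellate cells are known for N-cadherin. The zinc-finger proteins of the Snail family (Snai1, Snai2) and the Zeb family (Zeb1, Zeb2) repress Cdh1 by binding E-box sequences in its promoter, and the helix-loop-helix proteins Twist1 and Twist2 act in the same programme. Esrp1 directs splicing towards epithelial isoforms and is itself repressed by Zeb1.

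The sequences shown are windows of 250 bases upstream of annotated starts, credited to RefSeq (GRCm38.p6), for Snai1, which holds the E-box letters bound by Snail and Zeb proteins, Zeb2, the EMT factor with the largest change from day 0 to plastic, and Twist2, which passed the test in no HSC comparison. Capitals mark CACCTG, which was searched together with its reverse complement CAGGTG on both strands.
Snai1, chr2:167537945-167538194, plus strand: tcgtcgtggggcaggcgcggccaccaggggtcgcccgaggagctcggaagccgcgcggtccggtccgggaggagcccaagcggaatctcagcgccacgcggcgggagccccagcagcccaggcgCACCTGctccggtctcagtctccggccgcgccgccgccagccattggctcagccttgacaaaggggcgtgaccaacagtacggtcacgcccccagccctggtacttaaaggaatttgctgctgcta
Zeb2, the outermost of its starts, chr2:45117443-45117692, minus strand: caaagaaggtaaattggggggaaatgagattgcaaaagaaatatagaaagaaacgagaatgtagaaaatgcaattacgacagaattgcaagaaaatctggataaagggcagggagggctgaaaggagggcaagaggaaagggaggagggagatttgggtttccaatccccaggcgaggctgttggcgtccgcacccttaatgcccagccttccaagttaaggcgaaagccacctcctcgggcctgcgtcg
Twist2, chr1:91801211-91801460, plus strand: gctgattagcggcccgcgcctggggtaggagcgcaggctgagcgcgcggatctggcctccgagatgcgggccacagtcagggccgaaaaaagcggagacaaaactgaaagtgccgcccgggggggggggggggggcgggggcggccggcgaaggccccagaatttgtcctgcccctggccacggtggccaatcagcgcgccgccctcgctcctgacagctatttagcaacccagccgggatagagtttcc
Of the 10 genes, 4 matched this promoter table (Snai1, Twist1, Twist2 and Zeb2). The Snai1 window held CACCTG once, beginning 126 bases before the start. No match lay in the windows of Zeb2, Twist1 and Twist2. Over all 32851 windows of this length, 17.2% held CACCTG or CAGGTG. The match describes letters in a window and shows no binding.

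Library totals lay between 6907479 estimated counts (co-cultured HSC replicate 1) and 22158674 (replicate 2 on plastic), with 19114 to 22550 genes detected. Levels are given as CPM, the counts scaled to a common library size, and changes as fitted log2 fold changes with their standard error. All 12 stellate markers were detected in every HSC group, where they summed to 7252 CPM or more. In ICO they summed to 578 to 867 CPM, with Hand2 at 0 in both groups and the other 11 detected. The HSC libraries from Matrigel stood apart in their cholangiocyte transcripts. An organoid share was computed for each library as the median, over 15 cholangiocyte genes that leave out the 10 genes described here, of its level as a percentage of the mean ICO level of the same culture. It was 28.0%, 15.3% and 41.9% in co-cultured HSC (replicates 1, 2 and 3) and 35.6%, 12.9% and 2.96% in HSC labelled as cultured alone in Matrigel, against at most 0.207% on plastic and at day 0. The share is a ratio of levels, and whether these transcripts came from organoid cells or from HSC was not tested. The markers of other cells differed too. The summed level of 18 macrophage markers was 281 to 431 CPM in co-cultured HSC, 2829 to 3682 CPM in HSC alone in Matrigel, 147 to 604 CPM on plastic and 1159 to 1212 CPM at day 0. Hepatocyte markers (15 genes) summed to 18680 to 19640 CPM at day 0, where later HSC libraries stayed at or below 385 CPM. Endothelial markers (14 genes) summed to 1392 to 1394 CPM at day 0, where later libraries stayed at or below 68.8 CPM. In bulk RNA, fewer cells of a type and less RNA per cell cannot be told apart.

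**Figure D1:**
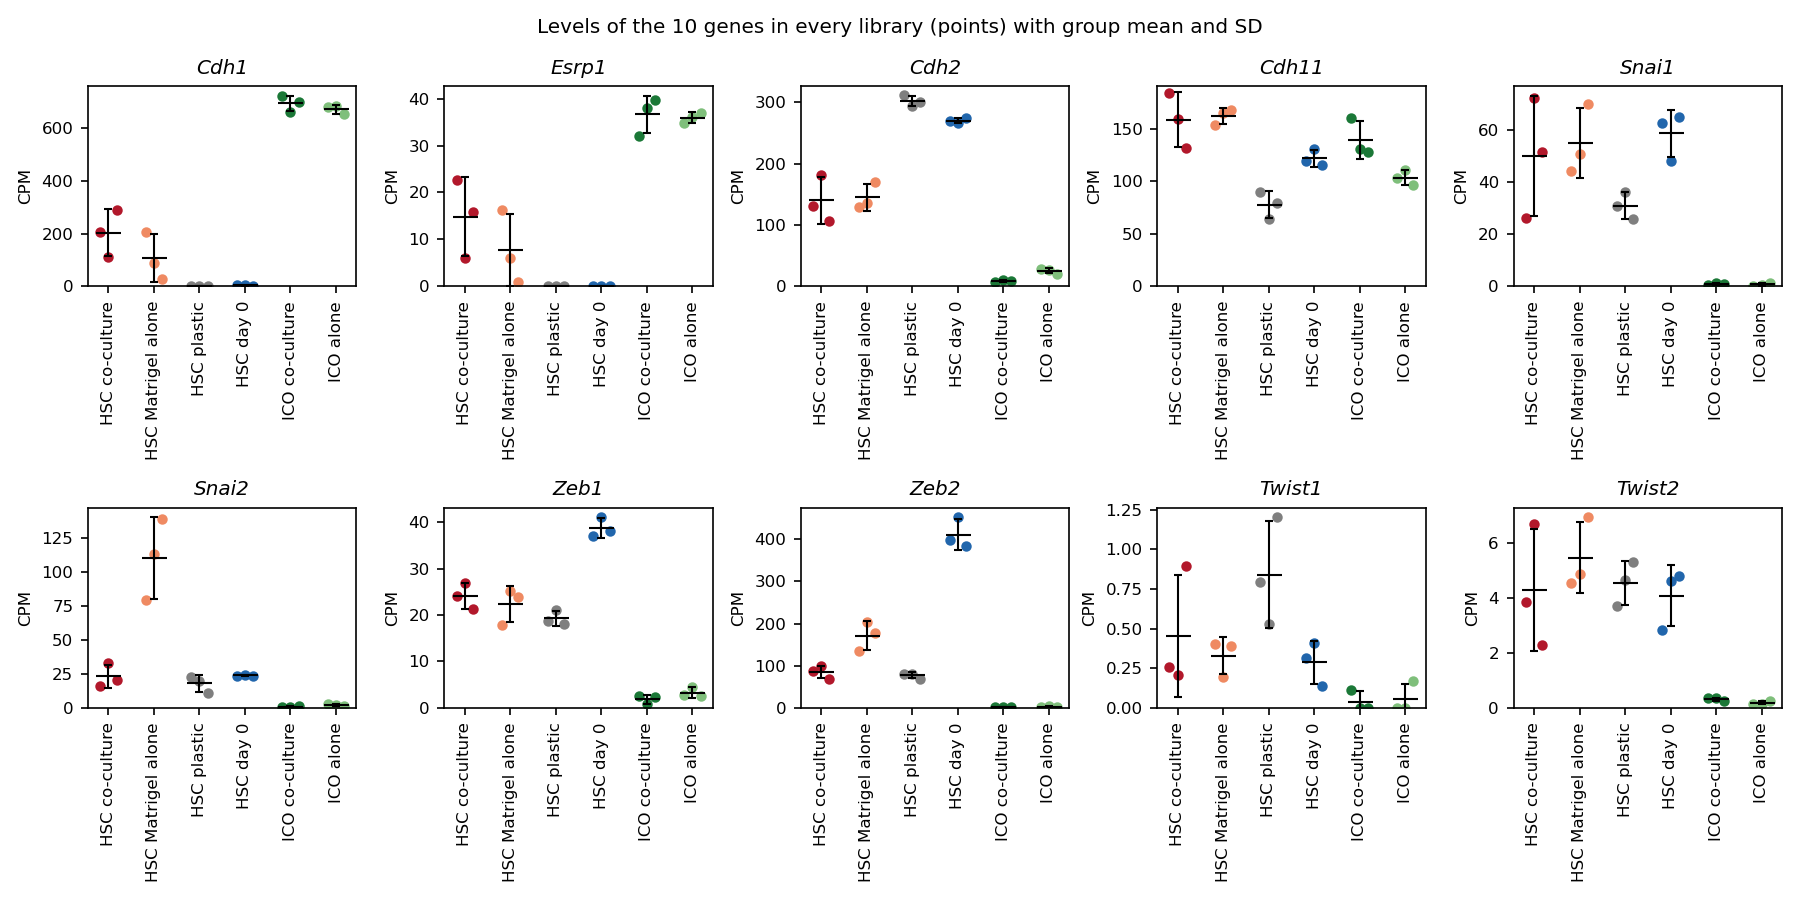
Level (CPM, linear axis from 0, a scale of its own for each gene) of the 10 genes in the 18 libraries. Points are libraries, the bar is the group mean and the whiskers are the SD of 3 libraries. Cdh1 and Esrp1 are high in ICO and spread widely in HSC from Matrigel, Snai2 stands out in HSC alone in Matrigel, and Zeb2 is highest at day 0.

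E-cadherin had its highest levels in the organoids and was also present in every HSC library from Matrigel. Cdh1 (ENSMUSG00000000303) had 206, 113 and 291 CPM in co-cultured HSC, 206, 90.0 and 29.0 CPM in HSC alone in Matrigel, 0.132, 0.192 and 0 CPM on plastic and 3.30, 4.22 and 2.95 CPM at day 0. It had 723, 665 and 700 CPM in co-cultured ICO and 681, 684 and 653 CPM in ICO alone. Every HSC library from Matrigel lay above every day 0 and plastic library and below every ICO library, while co-cultured HSC and HSC alone overlapped. Against day 0, Cdh1 was higher by 5.92 ± 0.754 in co-culture (adjusted p = 0.000116, edgeR's quasi-likelihood test) and by 4.95 ± 0.729 alone in Matrigel (adjusted p = 0.000532). On plastic it was lower than at day 0, with a change of -4.78 ± 1.27 (adjusted p = 0.00898). The plastic libraries held 2, 4 and 0 estimated Cdh1 counts. Hepatocyte markers summed to 18680 to 19640 CPM at day 0 and to 114 to 144 CPM on plastic. Their part in this Cdh1 difference was not tested. Co-culture and Matrigel alone differed by 0.97 ± 0.588, which did not pass the test (adjusted p = 0.244). Without Matrigel replicate 1 that difference was 1.82 and passed (adjusted p = 0.0246).

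Esrp1, the epithelial splicing regulator, followed the same order of groups in Matrigel and ICO. It had 22.7, 6.05 and 15.9 CPM in co-cultured HSC, 16.2, 6.13 and 1.01 CPM in HSC alone in Matrigel, 32.1, 38.0 and 39.8 CPM in co-cultured ICO and 34.8, 36.1 and 37.0 CPM in ICO alone. Plastic libraries held 2 Esrp1 counts in all and day 0 libraries 1 count. Every HSC library from Matrigel lay above these. The ratio to day 0 was 532 in co-culture (95% interval 95.1 to 21100) and 309 alone in Matrigel (55.1 to 12200). Against plastic the ratio was 333 (91.8 to 2760) in co-culture and 193 (53.2 to 1600) alone in Matrigel. These exact conditional Poisson intervals cover counting error only. All 4 differences passed the test, with adjusted p between 0.000209 and 0.000922. The difference between plastic and day 0 did not (adjusted p = 0.861).

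Within HSC from Matrigel the levels of Cdh1 and Esrp1 moved with the organoid share. As a percentage of the mean ICO level of the same culture, Cdh1 reached 29.6%, 16.2% and 41.8% in co-culture, beside shares of 28.0%, 15.3% and 41.9%. Alone in Matrigel it reached 30.7%, 13.4% and 4.31%, beside shares of 35.6%, 12.9% and 2.96%. Library by library, Cdh1 thus lay close to the level that the other epithelial genes had. Esrp1 reached 61.9%, 16.5% and 43.3% in co-culture and 45.0%, 17.1% and 2.80% alone. Esrp1 stood above the share in Matrigel replicates 1 and 2 and further above it in co-cultured replicate 1, the library with the lowest total. Per 100 Cdh1 counts, Esrp1 had 11.0, 5.37 and 5.45 counts in co-culture and 7.84, 6.81 and 3.47 counts alone in Matrigel, against 4.44 to 5.72 counts in the ICO libraries. When the share times the ICO profile was subtracted from the HSC counts before the fit, Cdh1 was 1.23 above day 0 in co-culture (adjusted p = 0.502) and 0.39 above day 0 alone in Matrigel (adjusted p = 0.856), so neither call stood. Esrp1 alone in Matrigel was then 6.15 above day 0 and was not called either (adjusted p = 0.0521), whereas in co-culture it was 7.63 above day 0 and still called (adjusted p = 0.0147). Subtracted values below 0 were set to 0. This applied to Cdh1 in Matrigel replicate 1 (30.7% beside a share of 35.6%) and in co-cultured replicate 3 (41.8% beside 41.9%). It also applied to Esrp1 in Matrigel replicate 3 (2.80% beside 2.96%). The part of these zeros in the lost calls was not tested. The calls against plastic stood after subtraction for both genes, with Cdh1 at 6.02 in co-culture and 5.18 alone in Matrigel.

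**Figure D2:**
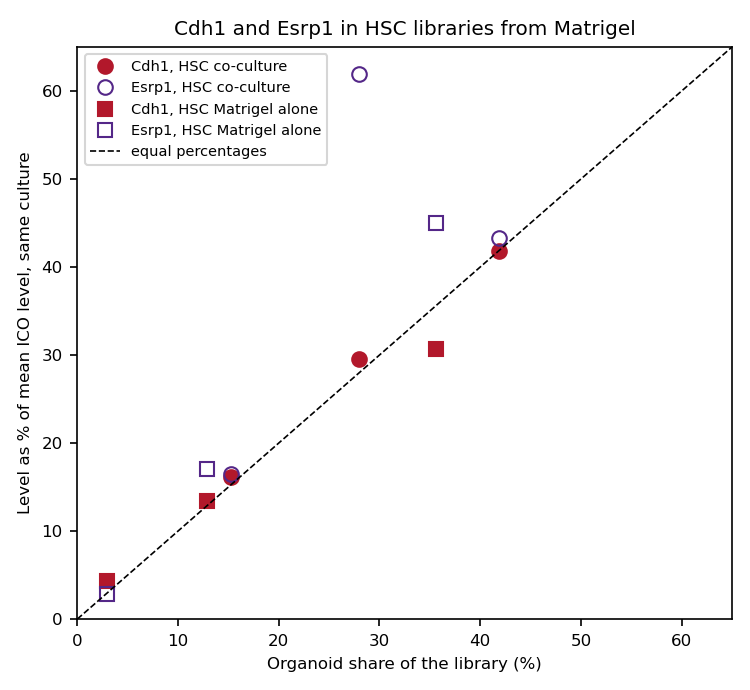
Level of Cdh1 and Esrp1 in each HSC library from Matrigel, as a percentage of the mean ICO level of the same culture (vertical axis), against the organoid share of that library in percent (horizontal axis). Circles are co-cultured HSC, squares are HSC alone in Matrigel, and the dashed line marks equal percentages. Cdh1 stays near the line from 4.31% to 41.8%, and the Esrp1 value of 61.9% is co-cultured replicate 1.

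N-cadherin ran the other way. Cdh2 had 132, 182 and 107 CPM in co-cultured HSC, 130, 136 and 171 CPM in HSC alone in Matrigel, 312, 294 and 301 CPM on plastic and 270, 266 and 275 CPM at day 0. All 6 HSC libraries from Matrigel lay below all 6 from plastic and day 0. Cdh2 was lower than on plastic by a change of -1.12 ± 0.17 in co-culture (adjusted p = 0.000194) and -1.11 ± 0.17 alone in Matrigel (adjusted p = 0.000124). Against day 0 the changes were -0.90 ± 0.17 and -0.89 ± 0.17 (adjusted p = 0.000562 and 0.00102). With the organoid share subtracted, the co-culture change against day 0 was -0.43 and that against plastic -0.65, both still called. The summed level of other cell types at day 0 also moved with this comparison, and its part was not tested. Plastic and day 0 did not differ by the test (0.22 ± 0.168, adjusted p = 0.271), although a fit of those 6 libraries alone gave 0.23 with an adjusted p of 0.0186. Co-culture and Matrigel alone differed by -0.01 ± 0.169 (adjusted p = 0.979).

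In the organoids, Cdh2 was the member with a lower level in co-culture. It had 7.84, 10.9 and 9.34 CPM in co-cultured ICO and 28.2, 27.0 and 20.5 CPM in ICO alone. The groups did not overlap, and the change was -1.45 ± 0.18 (adjusted p = 2.63e-05). Of the 8 members tested in ICO, 1 was higher in co-culture and 1 lower, where 8.59% of all genes tested were higher and 7.96% lower (16.6% called in either direction). Stellate markers in the same libraries summed to 673 to 867 CPM in co-cultured ICO and 578 to 676 CPM in ICO alone. Of the 7 stellate markers tested in ICO, 1 was higher in co-culture and 0 lower (median log2 change 0.24). Their part in the Cdh2 difference was not tested.

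The co-culture effect on Cdh2 differed between the cell types. The difference of the effects, HSC minus ICO, was 1.35 ± 0.283 (adjusted p = 0.00623), and Cdh2 was the only member of 9 tested that passed, where 17.2% of all genes passed, 9.08% upward and 8.08% downward. Without co-cultured HSC replicate 1, Cdh11 passed as well (-0.63, adjusted p = 0.0327).

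Cdh11, a cadherin of mesenchymal cells, was well detected in both cell types. It had 184, 160 and 132 CPM in co-cultured HSC, 154, 165 and 168 CPM in HSC alone in Matrigel, 90.0, 64.0 and 79.3 CPM on plastic and 119, 131 and 115 CPM at day 0. In ICO it had 160, 130 and 128 CPM in co-culture and 104, 110 and 96.3 CPM alone. The HSC libraries from Matrigel were the highest of the HSC groups and plastic the lowest, with no overlap among Matrigel, day 0 and plastic. Against plastic, Cdh11 was higher by 1.02 ± 0.152 in co-culture (adjusted p = 0.000173) and by 1.00 ± 0.152 alone in Matrigel (adjusted p = 0.000112). On plastic it was below day 0, with a change of -0.58 ± 0.151 (adjusted p = 0.00464).

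Smaller Cdh11 differences depended on single libraries and on settings. It was higher than at day 0 by 0.43 ± 0.151 in co-culture (adjusted p = 0.0259) and by 0.42 ± 0.151 alone in Matrigel (adjusted p = 0.0382). Leaving out day 0 replicate 1, 2 or 3 gave adjusted p of 0.135, 0.0652 and 0.0921 in co-culture and 0.143, 0.0736 and 0.126 alone. Leaving out co-cultured replicate 1 gave 0.112, and leaving out Matrigel replicate 2 or 3 gave 0.0877 and 0.0989. With RLE scaling the adjusted p were 0.0561 and 0.0613, and with DESeq2 0.0552 and 0.057. With no low-count filter they were 0.0652 and 0.0882. The co-culture call was also lost in a fit of those 6 libraries alone (0.0659), and the Matrigel call with the replicate number as a block (0.0516). Cdh11 was the member that was higher in co-cultured ICO than in ICO alone (0.42 ± 0.0989, adjusted p = 0.00702), with no overlap between the groups. That call was lost without co-cultured ICO replicate 1 (0.31, adjusted p = 0.0519) and when all 18 libraries shared a fit (0.45, adjusted p = 0.0908).

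Snai1 and Snai2, the Snail family members, did not move together in HSC. Snai1 had 26.2, 72.5 and 51.8 CPM in co-cultured HSC, 44.2, 50.8 and 70.1 CPM alone in Matrigel, 30.8, 36.3 and 25.9 CPM on plastic and 62.9, 48.3 and 65.0 CPM at day 0. Plastic was the lowest group and overlapped with co-cultured replicate 1 only. Snai1 was lower on plastic than at day 0 by a change of -0.86 ± 0.298 (adjusted p = 0.0264), and higher alone in Matrigel than on plastic by 0.77 ± 0.297 (adjusted p = 0.0434). Both calls depended on single libraries and on settings. The decrease from day 0 had an adjusted p of 0.0748 and 0.0965 when replicate 1 or 3 on plastic was left out, of 0.0598 and 0.0882 when day 0 replicate 1 or 3 was, and of 0.0564 with no low-count filter. The difference between Matrigel and plastic had an adjusted p of 0.0707 and 0.183 when Matrigel replicate 2 or 3 was left out, and of 0.113, 0.0629 and 0.145 when replicate 1, 2 or 3 on plastic was. It had 0.108 with no filter, 0.0588 in a fit of all 18 libraries and 0.0562 with the replicate number as a block. Co-cultured HSC against plastic gave 0.68 ± 0.297 (adjusted p = 0.0844), and 0.97 without co-cultured replicate 1 (adjusted p = 0.00547).

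Snai2 was high in HSC alone in Matrigel. It had 16.3, 32.7 and 20.3 CPM in co-cultured HSC, 79.1, 113 and 139 CPM in HSC alone in Matrigel, 22.8, 19.8 and 11.3 CPM on plastic and 23.6, 24.3 and 23.7 CPM at day 0. The 3 libraries of HSC alone in Matrigel lay above all other 15 libraries. Snai2 was lower in co-culture than alone in Matrigel by a change of -2.21 ± 0.301 (adjusted p = 0.000157), and higher alone in Matrigel than at day 0 by 2.22 ± 0.301 (adjusted p = 9.93e-05) and than on plastic by 2.56 ± 0.305 (adjusted p = 2.45e-05). These calls stood under every alternative tried, with changes of -2.53 to -1.99, 2.00 to 2.50 and 2.30 to 2.84. The sum of macrophage markers was also highest in HSC alone in Matrigel, at 2829 to 3682 CPM. Gene by gene, 14 of 18 were higher there than on plastic and 0 lower, beside 29.9% and 25.2% of all genes. Against day 0 the list was split, with 6 higher and 5 lower (median -0.15), beside 19.3% and 21.5% of all genes. In co-culture 0 were higher and 14 lower than alone in Matrigel, beside 17.3% and 13.8%. The part of macrophage transcripts in the Snai2 difference was not tested. The ratio of Snai2 to Snai1, as log2 of (CPM + 1), was -0.66, -1.12 and -1.31 in co-culture, 0.83, 1.14 and 0.98 alone in Matrigel, -0.42, -0.84 and -1.14 on plastic and -1.37, -0.96 and -1.42 at day 0. The sign was positive in HSC alone in Matrigel and negative in the other HSC groups. The size of a ratio between genes depends on their transcript lengths, so it is read between libraries only.

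**Figure D3:**
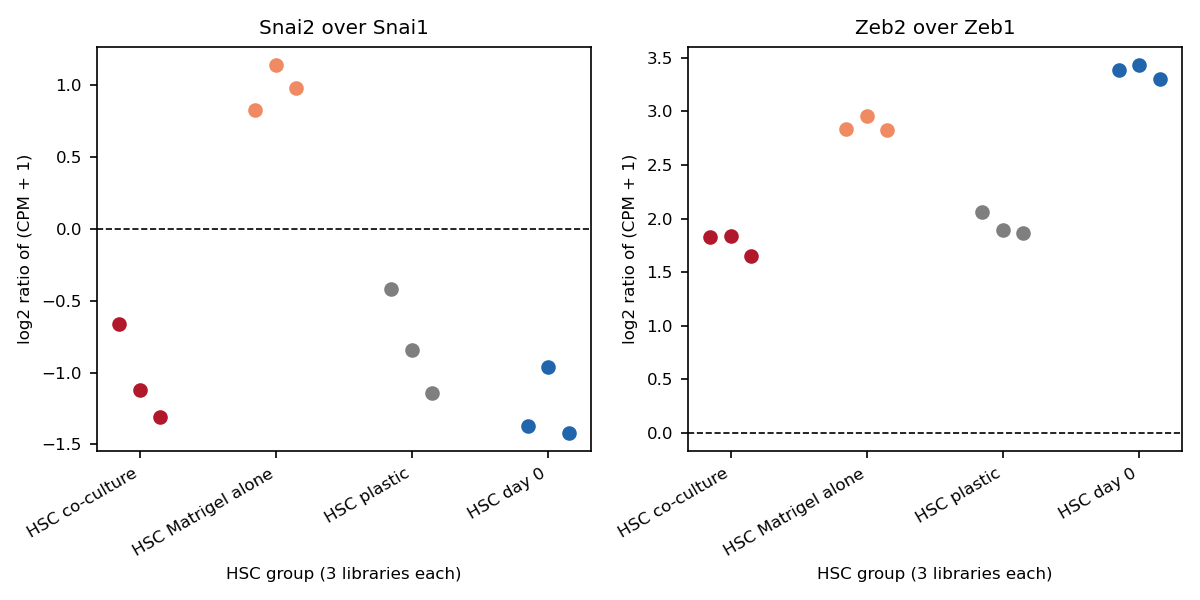
Log2 ratio of Snai2 over Snai1 (left) and of Zeb2 over Zeb1 (right), from CPM + 1, in each of the 3 libraries of the 4 HSC groups. Snai2 over Snai1 lies at 0.83 to 1.14 in HSC alone in Matrigel and below 0 in the other HSC libraries, and Zeb2 over Zeb1 lies at 3.30 to 3.43 at day 0 and at 1.65 to 1.84 in co-culture.

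Zeb2 showed its highest level in fresh HSC. It had 88.0, 98.7 and 69.1 CPM in co-culture, 135, 204 and 177 CPM alone in Matrigel, 81.3, 80.9 and 68.9 CPM on plastic and 398, 453 and 384 CPM at day 0. Day 0 did not overlap with any other group, and HSC alone in Matrigel stood between day 0 and the overlapping pair of co-culture and plastic. Against day 0 the changes were -2.22 ± 0.176 in co-culture (adjusted p = 2.3e-07), -1.25 ± 0.17 alone in Matrigel (adjusted p = 6.53e-05) and -2.35 ± 0.176 on plastic (adjusted p = 1.3e-07). Co-culture was below Matrigel alone (-0.97 ± 0.17, adjusted p = 0.000788), and Matrigel alone was above plastic (1.10 ± 0.17, adjusted p = 0.000133). Each of these calls stood under every alternative tried. Zeb2 is also expressed in macrophages and endothelial cells. Macrophage markers summed to 281 to 431 CPM in co-culture, 2829 to 3682 CPM alone in Matrigel, 147 to 604 CPM on plastic and 1159 to 1212 CPM at day 0, and endothelial markers were highest at day 0. Their part in these differences was not tested.

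Zeb1 moved less. It had 24.1, 26.8 and 21.3 CPM in co-culture, 17.9, 25.3 and 24.0 CPM alone in Matrigel, 18.7, 21.0 and 18.1 CPM on plastic and 37.1, 41.2 and 38.1 CPM at day 0. Every cultured library lay below every day 0 library, and HSC alone in Matrigel overlapped with both other cultured groups, whereas co-culture lay above plastic. Its changes against day 0 were -0.64 ± 0.16 in co-culture (adjusted p = 0.00431), -0.78 ± 0.16 alone in Matrigel (adjusted p = 0.00161) and -0.94 ± 0.161 on plastic (adjusted p = 0.000194). After subtraction of the organoid share the co-culture change was -0.15 and not called (adjusted p = 0.405). It also brought Zeb1 past the threshold in co-culture against plastic (0.80, adjusted p = 0.000802) and against Matrigel alone (0.38, adjusted p = 0.0474), and alone in Matrigel against plastic (0.42, adjusted p = 0.0201). Zeb2 over Zeb1, as log2 of (CPM + 1), was 1.83, 1.84 and 1.65 in co-culture, 2.84, 2.96 and 2.83 alone in Matrigel, 2.06, 1.89 and 1.87 on plastic and 3.39, 3.43 and 3.30 at day 0. The 4 HSC groups did not overlap on this ratio.

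The Twist genes were low and passed the test in no comparison among HSC groups. Twist2 had 3.84, 6.67 and 2.30 CPM in co-cultured HSC, 4.55, 4.88 and 6.94 CPM alone in Matrigel, 3.70, 4.66 and 5.29 CPM on plastic and 2.83, 4.63 and 4.80 CPM at day 0. The HSC groups overlapped, and in ICO Twist2 reached at most 0.346 CPM. Twist1 reached at most 1.20 CPM in any library, with means of 0.453 CPM in co-culture, 0.330 CPM alone in Matrigel, 0.841 CPM on plastic and 0.287 CPM at day 0. Plastic against day 0 gave 1.58 ± 0.709 for Twist1 (adjusted p = 0.0705), with no overlap between the groups.

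**Figure D4:**
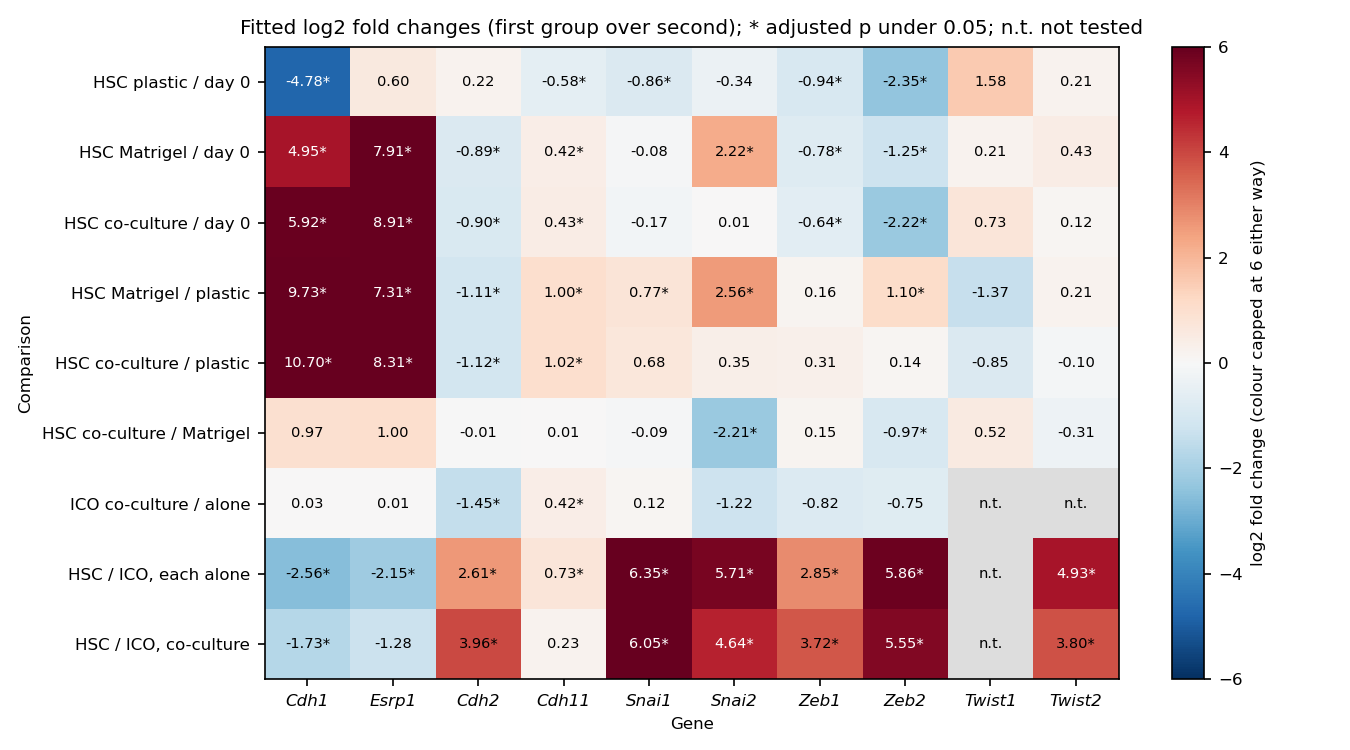
Fitted log2 fold changes of the 10 genes (columns) in 9 comparisons (rows), with the group named before the slash over the group after it. A star marks an adjusted p under 0.05 and n.t. a gene that was not tested. Esrp1 values against plastic and day 0 rest on 1 to 2 counts and depend on the prior count. Cdh1 values against plastic rest on 2, 4 and 0 estimated counts in the plastic libraries. Cdh1 and Esrp1 are positive and starred in both Matrigel rows against plastic and day 0, and Snai2 and Zeb2 are the starred genes of co-culture over Matrigel.

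Counted over the 10 members, 0 were higher and 5 lower on plastic than at day 0, where 27.5% of all 17020 genes tested were higher and 30.5% lower (58% called). Alone in Matrigel, 4 were higher and 3 lower than at day 0, beside 19.3% and 21.5% of all genes (40.8% called). Against plastic, 6 were higher and 1 lower alone in Matrigel, beside 29.9% and 25.2% (55% called). Co-cultured HSC had 3 higher and 3 lower than at day 0, beside 28.9% and 24.8% (53.7% called), and 3 higher and 1 lower than on plastic, beside 22.9% and 19.6% (42.5% called). After subtraction of the organoid share 8 members were called in co-culture against plastic, among them Snai1 (1.19), Snai2 (0.84) and Zeb2 (0.64). The 42.5% of all genes belongs to the fit before subtraction and is no background for these 8 members. How far subtraction moved the all-gene counts is stated with the processing results below. Against Matrigel alone, 0 were higher and 2 lower in co-culture, Snai2 and Zeb2, beside 17.3% and 13.8% (31.1% called). The comparisons among HSC share their groups, so these counts are not independent of each other.

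With each cell type alone in Matrigel, 9 members were tested, of which 7 were higher in HSC and 2 lower, beside 30.9% and 25.8% of all genes (56.7% called). Snai1 was higher by 6.35 ± 0.529 (adjusted p = 2.7e-06), Zeb2 by 5.86 ± 0.266 (adjusted p = 5.29e-09) and Snai2 by 5.71 ± 0.375 (adjusted p = 2.21e-07). Twist2 was higher by 4.93 ± 0.551, Zeb1 by 2.85 ± 0.35, Cdh2 by 2.61 ± 0.208 and Cdh11 by 0.73 ± 0.142. The lower genes were Cdh1 (-2.56 ± 0.599, adjusted p = 0.00558) and Esrp1 (-2.15 ± 0.747, adjusted p = 0.034). After subtraction of the organoid share the Cdh1 change was -7.20. The Esrp1 difference no longer passed when HSC replicate 2 was left out (adjusted p = 0.0997) or ICO replicate 1, 2 or 3 (0.0652, 0.0661 and 0.0655), with no filter (0.0609) or with those 6 libraries alone (0.0871). Twist1 was below the filter, with 16 counts in HSC and 2 in ICO, a ratio of 6.47 (95% interval 1.52 to 58).

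In co-culture, 6 of the 9 members were higher in HSC than in ICO and 1 was lower, beside 24% and 15.6% of all genes (39.6% called). Snai1 was higher by 6.05 ± 0.507, Zeb2 by 5.55 ± 0.266, Snai2 by 4.64 ± 0.384, Cdh2 by 3.96 ± 0.222, Twist2 by 3.80 ± 0.498 and Zeb1 by 3.72 ± 0.365, with adjusted p of at most 6.3e-05. Cdh1 was lower by a change of -1.73 ± 0.581 (adjusted p = 0.0407). That call was lost without co-cultured HSC replicate 1 or 2 (adjusted p = 0.1 and 0.133), without co-cultured ICO replicate 1, 2 or 3 (0.0854, 0.076 and 0.0818), without the filter (0.0703) and with the replicate number as a block (0.0596). Esrp1 gave -1.28 ± 0.723 (adjusted p = 0.19), and Cdh11 gave 0.23 ± 0.141 (adjusted p = 0.202), or 0.36 with an adjusted p of 0.0488 without co-cultured HSC replicate 3. Twist1 held 20 counts in HSC and 2 in ICO, a ratio of 12.1 (95% interval 2.95 to 107).

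Relative to HSC, Snai1 and Zeb2 were low in organoids, Cdh2 less so and Cdh11 least. As a percentage of the mean HSC level of the same culture, Snai1 reached 0.913%, 2.21% and 1.59% in co-cultured ICO and 0.389%, 1.27% and 2.29% in ICO alone. Zeb2 reached 3.02%, 1.95% and 1.64% in co-culture and 1.78%, 2.18% and 1.51% alone. Dcn, the matrix proteoglycan of stellate cells, was at most 0.35% in co-cultured ICO and 0.165% in ICO alone, and at 0 in ICO alone replicate 3. Cdh11, by contrast, reached 101%, 82.3% and 80.5% of the HSC level in co-culture and 63.8%, 68.0% and 59.4% alone. Cdh2 reached 5.59%, 7.74% and 6.66% in co-culture and 19.4%, 18.6% and 14.1% alone, and Zeb1 3.16% to 10.5% in co-culture and 11.2% to 20.5% alone. Each percentage of Cdh11, Cdh2, Zeb1, Zeb2 and Snai1 exceeded the median over the 12 stellate markers in its library, which was at most 0.364%. The HSC levels that these percentages divide by differ between cultures, with stellate markers at 9219 to 14710 CPM in co-cultured HSC and 24990 to 44430 CPM in HSC alone in Matrigel, so percentages are read within a culture.

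**Figure D5:**
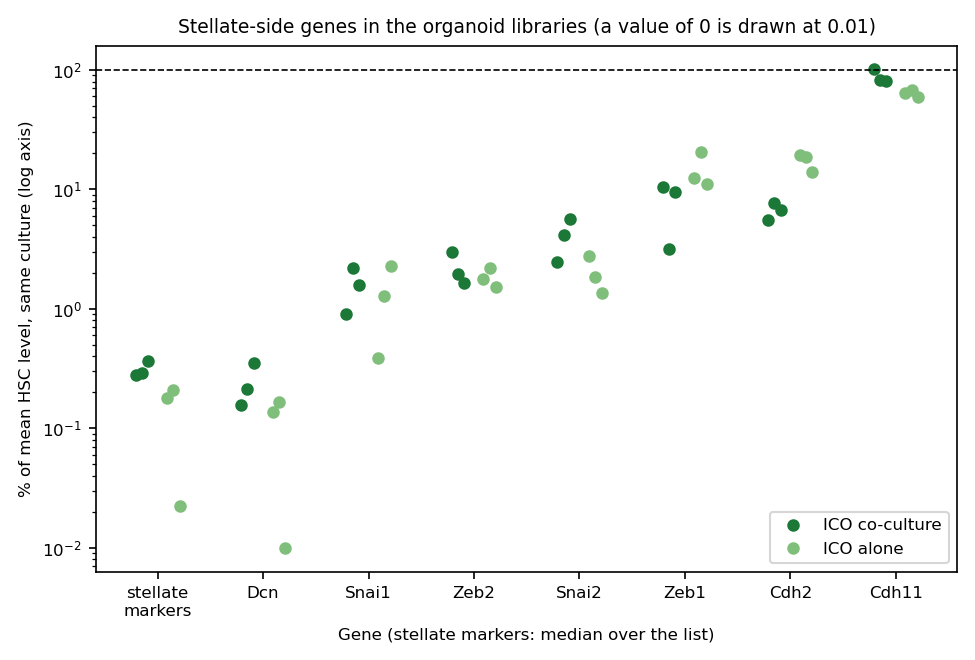
Level of stellate markers (median of 12), Dcn and 6 of the described genes in each ICO library, as a percentage of the mean HSC level of the same culture (log axis, the dashed line marks 100%). Dark green points are co-cultured ICO, light green points are ICO alone, and the Dcn value of 0 is drawn at 0.01. Cdh11 lies at 59.4% to 101%, Cdh2 at 5.59% to 19.4% and Snai1 at 0.389% to 2.29%.

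Ordered by mean level, the 6 groups gave 50 pairs of neighbours over the 10 genes, of which 17 differed by the test in a fit of all 18 libraries. For Cdh1 the order was co-cultured ICO, ICO alone, co-cultured HSC, HSC alone in Matrigel, day 0 and plastic. Its first pair and the pair of HSC from Matrigel did not differ beyond their spread. For Cdh2 the order was plastic, day 0, HSC alone in Matrigel, co-cultured HSC, ICO alone and co-cultured ICO, where plastic and day 0, and the pair from Matrigel, were not separated. For Cdh11 the only separated neighbours were ICO alone and plastic, at the low end. Zeb2 ran from day 0 to HSC alone in Matrigel, co-cultured HSC, plastic, ICO alone and co-cultured ICO, and the pair of co-cultured and plastic HSC and the ICO pair were not separated. Snai2 ran from HSC alone in Matrigel to day 0, co-cultured HSC, plastic, ICO alone and co-cultured ICO, and only the top pair and the step from plastic to ICO alone were separated. For Snai1 and Twist2 the only separated neighbours were the lowest HSC group and co-cultured ICO, and for Twist1 none were.

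The genes most like each member over the 18 libraries, by Pearson correlation of log2(CPM + 1), mainly tracked the cell type. This is a description over libraries that share depth and group. Cdh1 was most like Prom1 (r = 0.993), Car2 (0.993) and Cldn2 (0.992), and Esrp1 most like Cdcp1, Gpx2 and Gabrp (0.995 each). Cdh2 was most like Abcg2 (0.989), Itsn1 (0.988) and Septin11 (0.987). Snai1 went with Itm2a (0.991), Hic1 (0.990) and Gata4 (0.990), Snai2 with Carmn (0.969), Hoxa2 (0.962) and Gja1 (0.959). Zeb1 went with Acyp2 (0.981), Pdgfra (0.981) and Stx2 (0.980), and Zeb2 with Dennd2a (0.994), Ednrb (0.993) and Ptger2 (0.993). Cdh11 had the weakest likeness, to Fam193b (0.902), Rbm5 (0.900) and Zc3h7a (0.893). Among the members, Cdh1 and Esrp1 had r = 0.97 over 18 libraries and 0.94 over the 12 HSC libraries, Zeb1 and Zeb2 0.98 and 0.88, and Cdh1 and Cdh2 -0.84 and -0.97. Snai1 and Snai2 had 0.91 over all libraries and 0.52 within HSC.

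The partners of cadherins at the junction were counted as a list of 12. In co-cultured HSC, 5 were higher and 0 lower than in HSC alone in Matrigel (median log2 change 0.51, against 0.03 over all genes, of which 17.3% were higher and 13.8% lower). The organoid shares of these libraries also differ, and their part was not tested. They included alpha-catenin Ctnna1 (0.50 ± 0.145, adjusted p = 0.0183), p120-catenin Ctnnd1 (0.51 ± 0.169, adjusted p = 0.0335) and the adhesion receptor Nectin2 (1.77 ± 0.328, adjusted p = 0.00185). Beta-catenin, Ctnnb1, gave 0.38 ± 0.198 (adjusted p = 0.16). In ICO, 0 of 11 tested partners were called in either direction between co-culture and alone (median 0.10), beside 16.6% of all genes. Ctnnb1 gave -0.20 ± 0.0991 and Ctnnd1 -0.07 ± 0.0934. Against ICO, HSC alone in Matrigel had 2 higher and 8 lower of 12 (median -0.86, against 0.09 over all genes). Of all genes, 30.9% were higher and 25.8% lower. Ctnna1 at -0.86 ± 0.145, Ctnnb1 at -1.24 ± 0.205 and Ctnnd1 at -1.28 ± 0.177 were among the lower partners. Nectin3 at 4.41 ± 0.593 was among the higher.

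Of 29 tested genes of an epithelial list without the members, 28 were higher in co-cultured HSC than on plastic and 0 lower (median 8.40). Of all genes, 22.9% were higher and 19.6% lower. In HSC alone in Matrigel 26 were higher than on plastic and 0 lower (median 7.48), beside 29.9% and 25.2% of all genes. The organoid shares of the libraries from Matrigel stand above. Co-culture against Matrigel alone had 0 of 29 called (median 0.98), where 31.1% of all genes were called. On plastic 1 was higher and 12 were lower than at day 0 (median -1.73, against -0.10 over all genes). Of all genes, 27.5% were higher and 30.5% lower. The lower ones included the keratin Krt18 (-5.16 ± 0.937) and the claudin Cldn3 (-4.97 ± 0.787). All 15 hepatocyte markers and all 14 endothelial markers were lower in the same comparison, and their part was not tested. In ICO, 13 were higher and 2 lower in co-culture than alone (median 0.28), beside 8.59% and 7.96% of all genes. The epithelial factors Elf3 (1.21 ± 0.0995) and Ovol1 (0.84 ± 0.164) were higher, and Krt8 (-0.47 ± 0.134) and Krt18 (-0.41 ± 0.136) lower. Esrp2, the paralog of Esrp1, and Grhl2, an activator of Cdh1, gave -0.17 ± 0.113 and -0.10 ± 0.144 and were not called, like Cdh1 (0.03 ± 0.0925) and Esrp1 (0.01 ± 0.121).

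Of 24 tested genes of a mesenchymal list without the members, 15 were higher and 5 lower on plastic than at day 0 (median 0.99). Of all genes, 27.5% were higher and 30.5% lower. The smooth muscle actin Acta2 gave 9.56 ± 1.56 and fibronectin Fn1 -2.29 ± 0.29. All 15 hepatocyte markers and all 14 endothelial markers were lower in this comparison, and their part was not tested. Alone in Matrigel 3 genes of the mesenchymal list were higher and 18 lower than on plastic (median -1.69), beside 29.9% and 25.2% of all genes. The contractile gene Tagln gave -7.40 ± 0.976 and the protease Mmp2 2.08 ± 0.249. In co-culture 18 were higher and 3 lower than alone in Matrigel (median 2.44, against 0.03 over all genes, of which 17.3% were higher and 13.8% lower), with the collagen cross-linking enzyme Lox at 5.97 ± 0.491, Acta2 at 4.78 ± 1.26 and Dcn at -2.09 ± 0.299. Markers of portal fibroblasts (6 genes) summed to 600.4 to 722 CPM in co-cultured HSC and 62.7 to 158 CPM in HSC alone in Matrigel. Those of mesothelial cells (7 genes) summed to 225 to 398 CPM and 27.5 to 138 CPM in the same groups. In co-cultured ICO the lists summed to 562.5 to 673.5 CPM and 698.9 to 814.7 CPM. In ICO alone they summed to 420.9 to 598.3 CPM and 575.2 to 687.3 CPM. Of 5 portal fibroblast markers tested, 3 were higher and 1 lower in co-cultured HSC than alone in Matrigel. Of 7 mesothelial markers, 1 was higher and 0 lower. The part of these cells and of the organoid share was not tested. In that comparison Snai2 and Zeb2 were lower and no member was higher.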

How the data were processed

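Bulk RNA was measured in 18 libraries, grouped by the titles in the labels. The authors deposited estimated counts per gene, which need not be whole. Build GRCm39 and the tools kallisto 0.46.1 and DESeq2 1.36.0 are listed in the submitters' processing notes without their roles. The annotation and any filters: not given in the sources used here. Estimated counts divide reads among similar transcripts: the values of Snai2 were whole (within 0.01) in 0 of 18 libraries, those of Zeb1 in 1 and of Zeb2 in 2, and those of Cdh11, Snai1, Twist1 and Esrp1 in all 18.

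The deposited estimated counts were rounded, filtered by the default of edgeR 4.0.16 (R 4.3.3), scaled by TMM and tested over all genes with its robust quasi-likelihood fit, with Benjamini-Hochberg adjustment and a threshold of 0.05. Comparisons among HSC groups used 1 fit of 12 HSC libraries, that within ICO the 6 ICO libraries, and those across cell types 12 Matrigel libraries. Standard errors were derived from each fitted change and its F value, as the ratio of the size of the change to the root of F. CPM used TMM factors over all 18 libraries. The test was checked on simulated counts. Genes for the organoid share had a mean of 100 CPM or more in ICO of both cultures and stayed under 5 CPM in all plastic and day 0 libraries.

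The members and the gene lists were chosen with earlier results of these data known. Members were named in full. Called list genes with non-overlapping groups and a mean of 10 CPM or more could be named, up to 2 with the largest increase and 2 with the largest decrease per list and comparison, besides catenins, Id genes, Esrp2, Grhl2, Ovol1, Ovol2 and Epcam. Alternatives were RLE scaling, no filter, a filter of 10 CPM in 3 libraries, DESeq2 1.42.0, the replicate number as a block, other sets of libraries, leaving out each replicate, and subtraction of the organoid share. Promoters came from RefSeq tables of GRCm38.p6. Those of the other 6 members and protein sequences were not used here.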

Additional observations from a re-analysis of the deposited data

Results flagged for a closer look

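The co-culture effect on Cdh2 differed between stellate cells and organoids by a test of the difference itself. Cdh2 averaged 140 CPM in co-cultured HSC and 145 CPM in HSC alone in Matrigel (a change of -0.01, adjusted p = 0.979), and 9.34 CPM in co-cultured ICO and 25.2 CPM in ICO alone (a change of -1.45, adjusted p = 2.63e-05). The difference of the log2 effects, HSC minus ICO, was 1.35 (adjusted p = 0.00623, edgeR's quasi-likelihood test). Over 19 alternatives it lay between 1.13 and 1.58, with adjusted p between 0.000435 and 0.0208. All 3 co-cultured ICO libraries lay below all 3 of ICO alone, while the HSC groups overlapped. After subtraction of the organoid share from the HSC libraries the difference was 1.58.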

How the results depend on the processing

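Fold changes of called members kept their direction under all alternatives tried, and the calls lost are given beside their results in the text above. Of the counts of members that moved by over 1.5 times, ICO in co-culture against alone gave 1 member with all 18 libraries in a fit (2 before), and co-cultured HSC against plastic gave 8 after subtraction of the organoid share (4 before). All-gene calls were 546 for ICO with all 18 libraries (2272 before) and 3453 for co-cultured HSC against Matrigel alone with those 6 libraries only (5290 before). Subtraction of the organoid share moved no all-gene count by over 1.5 times. Leaving out replicates gave 1 to 2 members and 1427 to 1948 genes for ICO, and 1 to 2 members for the difference of co-culture effects. The cause was not tested.

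Changes of sign were all in uncalled values. Cdh11 in co-culture against Matrigel alone (0.01) was -0.01 with DESeq2 and with RLE scaling, -0.06 with the stricter filter, -0.08 with those 6 libraries and -0.05 after subtraction. Snai2 in co-culture against day 0 (0.01) was -0.06 with DESeq2, RLE scaling and those 6 libraries, -0.05 without the filter and -0.03 with the replicate block. After subtraction Cdh2 (0.20) and Snai1 (0.13) in co-culture against Matrigel alone, Snai1 in co-culture (0.34) and alone in Matrigel (0.21) against day 0, and Twist2 in co-culture against plastic (0.32) turned positive. Leaving out replicates, the ranges were, for co-culture against Matrigel alone, Cdh11 -0.12 to 0.14, Cdh2 -0.23 to 0.16, Snai1 -0.43 to 0.21, Twist1 -0.49 to 0.92 and Twist2 -0.79 to 0.01. For co-culture against day 0 they were Snai1 -0.52 to 0.12, Snai2 -0.32 to 0.19, Twist1 -0.28 to 1.13 and Twist2 -0.37 to 0.43, and against plastic Snai2 -0.01 to 0.53, Twist2 -0.62 to 0.18 and Zeb2 -0.01 to 0.23. For Matrigel alone against day 0 they were Snai1 -0.32 to 0.05 and Twist1 -0.13 to 0.53, against plastic Twist2 -0.05 to 0.32, and for plastic against day 0 Esrp1 -1.96 to 2.56 and Twist2 -0.03 to 0.38. For ICO they were Esrp1 -0.05 to 0.10 and Snai1 -0.33 to 0.77, and for the difference of effects Snai1 -0.97 to 0.17.

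Same-numbered libraries correlated at -0.36 to 0.09 in their deviations. With 3 libraries per group this cannot show whether the samples were paired. Co-cultured HSC and ICO share the letter and number at the end of their titles, and their correlations were 0.05, 0.06 and -0.03. The replicate block moved no count of members by over 1.5 times, and the calls lost with it are given above. RLE scaling shifted the median of all genes by at most 0.066. Low counts limit Twist1, Esrp1 outside Matrigel and ICO, and Cdh1 on plastic.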

Other observations

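Among 17 other cadherins and protocadherins, several had a level in only some groups. Cdh6 had 228 CPM in co-cultured ICO and 317 CPM in ICO alone (-0.49 ± 0.10, adjusted p = 0.00238). Cdh13 had 184 CPM in co-cultured ICO and 116 CPM in ICO alone (0.65 ± 0.092, adjusted p = 0.000102). It had 62.5 CPM in co-cultured HSC and 10.6 CPM in HSC alone in Matrigel (2.63 ± 0.605, adjusted p = 0.00787). The organoid share was 28.0%, 15.3% and 41.9% in these co-cultured HSC libraries and 35.6%, 12.9% and 2.96% in those alone. Its part in the Cdh13 difference was not tested. The protocadherin Pcdh7 averaged 177 CPM in plastic HSC and 20.9 CPM in day 0 HSC (3.14 ± 0.183, adjusted p = 1.38e-08), and 37.6 CPM alone in Matrigel (-2.29 ± 0.176 against plastic, adjusted p = 4.37e-07). Pcdh18 averaged 21.2 CPM in HSC alone in Matrigel and 84.0 CPM in plastic HSC (-2.03 ± 0.272, adjusted p = 5.88e-05). Cdh5, the endothelial cadherin, averaged 0.963 CPM in plastic HSC and 18.9 CPM in day 0 HSC, beside endothelial markers that were highest at day 0. Of the 12 tested in HSC, 4 were higher and 1 lower in co-culture than alone in Matrigel, where 17.3% of all genes were higher and 13.8% lower (31.1% called).

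Among 30 other regulators linked to EMT, 25 were tested in HSC, of which 9 were higher and 5 lower in co-culture than alone in Matrigel (median 0.36, against 0.03 over all genes, of which 17.3% were higher and 13.8% lower). Runx1 had 51.1 CPM in co-cultured HSC and 7.73 CPM alone (2.78 ± 0.293, adjusted p = 1.2e-05), and the homeobox factor Prrx1 had 31.8 CPM and 5.12 CPM in the same groups (2.68 ± 0.239). Ets1 (-1.37 ± 0.165) and the splicing factor Mbnl1 (-1.29 ± 0.121) were lower. On plastic, Prrx1 (3.13 ± 0.257) and Runx1 (3.33 ± 0.335) were higher than at day 0 and Klf4 (-3.52 ± 0.261) lower. In ICO 3 of 25 were higher and 1 lower in co-culture, near the 8.59% and 7.96% of all genes, with Klf4 at 0.71 ± 0.104, Id1 at 0.52 ± 0.103 and Id3 at 0.51 ± 0.119 among the higher.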
